A study of Mus musculus with 24 samples.

Results

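This account covers the genes of caveolae and of the EHD membrane remodelling proteins in LSK-SLAM cells of young and old mice. The genes were chosen by symbol, as rows of the table of normalized read counts named *Cavin1*, *Cavin2*, *Cavin3*, *Cav1*, *Cav2*, *Ehd1*, *Ehd2*, *Ehd4* or *Pacsin2*. Of these 9 symbols 8 had a row among 18762 genes, and *Pacsin2* was not analysed here, nor was *Ehd3*. LSK-SLAM cells are bone marrow cells without lineage markers that carry Sca-1 and Kit and are gated on SLAM family receptors, which enriches for haematopoietic stem cells (HSCs). RNA-seq was performed on these cells from wild-type C57BL/6 mice, with 5 young mice aged 4 to 5 months and 7 old mice aged 20 to 22 months. The labels name no treatment and no allele other than wild type. Each mouse had 2 sequencing runs and was counted once.

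A normalized read count is the number of reads on a gene after the authors scaled each library to set mice side by side. Differences between some sets of mice depended on that scaling, as described further on. Recovered whole reads numbered between 0.861 and 5.12 M per mouse, where M is 1000000. Mice also carry a letter, A or B, at the end of their labels, and neither the labels nor the methods say what it stands for. Letter A marked 2 young and 4 old mice with a median of 2.12 M reads, and letter B marked 3 young and 3 old mice with a median of 4.53 M reads. Old mice 5 and 7, both of letter A, had the fewest reads. The 9 HSC markers that had been listed (*Kit*, *Ly6a*, *Slamf1*, *Procr*, *Hlf*, *Mecom*, *Fgd5*, *Hoxb5* and *Ctnnal1*) had reads in every mouse, with a mean normalized read count of 1508 for *Kit* and 979 for *Hlf*. Reads of mature blood cell markers were present as well, and their summed value lay between 192 and 858 in all mice but old mouse 6, where it reached 3578.

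Caveolae are flask-shaped pits of the plasma membrane. Caveolins, the integral membrane proteins *Cav1* and *Cav2*, form oligomers in the inner leaflet, and *Cav2* depends on *Cav1* to reach the cell surface. Cavins are peripheral proteins that coat these pits: *Cavin1* is the essential coat component, while *Cavin2* and *Cavin3* join it through their coiled coils. *Cavin2*, which binds phosphatidylserine, was first described in platelets. EHD proteins are ATPases that oligomerise on membranes. *Ehd2* sits at the neck of caveolae and stabilises them at the surface, whereas *Ehd1* and *Ehd4* act mainly on endosomes, in the return of internalised receptors to the surface.

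Positions are given on GRCm38 from GENCODE release 21 for mouse, in which all 8 genes are protein-coding. *Cavin2* lies at chr1:51289126-51302960 on the plus strand, *Cavin1* at chr11:100956733-100970887 on the minus strand and *Cavin3* at chr7:105480083-105482300 on the minus strand. *Cav2* (chr6:17281185-17289115) and *Cav1* (chr6:17306335-17341452) are neighbours on the plus strand, with 17220 bases between the end of *Cav2* and the start of *Cav1*. *Ehd1* lies at chr19:6276725-6300096 on the plus strand, *Ehd2* at chr7:15946958-15967567 and *Ehd4* at chr2:120089175-120154606, the last 2 on the minus strand. Exons of *Cavin3* overlap those of *Gm45667* on the opposite strand, and 20.1% of the 50-base stretches of *Cavin3* transcripts also occur there. Whether strand was used in counting is not stated in the sources used here, so *Cavin3* reads are uncertain. No other gene of the group shared a 50-base stretch with another gene.

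The 250 bases before the annotated start are shown for 3 of these genes, taken from RefSeq on GRCm38.p6: for *Cavin2*, which had the highest level and the largest separation by age, and for the neighbours *Cav2* and *Cav1*, which differed in how they varied among mice. All 3 run 5′ to 3′ on the plus strand, at chr1:51288876-51289125 for *Cavin2*, chr6:17280935-17281184 for *Cav2* and chr6:17306085-17306334 for the upstream start of *Cav1*. Capitals mark matches on either strand to the CCAAT motif, the TATA motif TATAAA and the GC box GGGCGG. The GATA motif AGATAA was searched as well and had no match in these stretches.
Cavin2 upstream: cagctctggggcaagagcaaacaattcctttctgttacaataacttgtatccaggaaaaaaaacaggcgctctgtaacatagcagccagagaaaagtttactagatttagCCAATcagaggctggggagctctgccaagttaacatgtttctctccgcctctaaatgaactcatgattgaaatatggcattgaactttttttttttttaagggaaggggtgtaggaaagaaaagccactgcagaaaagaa
Cav2 upstream: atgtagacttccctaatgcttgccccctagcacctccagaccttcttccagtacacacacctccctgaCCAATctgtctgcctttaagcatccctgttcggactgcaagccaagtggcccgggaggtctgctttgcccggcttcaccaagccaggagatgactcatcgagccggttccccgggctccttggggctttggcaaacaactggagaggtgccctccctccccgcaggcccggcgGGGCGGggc
Cav1 upstream: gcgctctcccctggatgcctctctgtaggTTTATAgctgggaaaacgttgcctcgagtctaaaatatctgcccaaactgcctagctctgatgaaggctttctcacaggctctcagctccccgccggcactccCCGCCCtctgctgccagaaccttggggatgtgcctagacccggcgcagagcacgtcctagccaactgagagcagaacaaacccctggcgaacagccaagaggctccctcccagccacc

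The *Cavin2* stretch held 1 CCAAT motif and no GC box, with 2 CpG dinucleotides and 40.4% GC. By contrast, the *Cav2* stretch held 1 CCAAT motif and 1 GC box, and that of *Cav1* held 1 TATA motif and 1 GC box, each with 10 CpG dinucleotides. The 250 bases before a downstream start of *Cav1*, at chr6:17307390-17307639, held none of the motifs searched and 12 CpG dinucleotides. The median over 32851 RefSeq promoters was 6 CpG dinucleotides, and 18.8% of promoters had fewer than *Cavin2*. CCAAT was found in 33.8% of all promoters, the GC box in 32.7%, TATAAA in 12.4% and AGATAA in 9.99%. These matches describe letters in a window and are not binding sites. The promoter table held 6 of the 8 genes, and *Cavin3* and *Ehd1* were not among them.

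First, the levels of the 8 genes were compared with each other, as normalized read counts divided by the length of exon in kilobases (kb). *Cavin2* was the highest, at 71.7 ± 29.0 per kb (SD, n = 12 mice), above 98.5% of the 18707 protein-coding genes. Next came *Cavin3* at 24.7 ± 7.19, *Cavin1* at 23.4 ± 6.07 and *Ehd4* at 20.98 ± 4.85 per kb. *Ehd1* followed at 9.73 ± 2.88, *Cav2* at 9.03 ± 2.62, *Ehd2* at 5.41 ± 1.86 and *Cav1* at 2.97 ± 2.95 per kb. *Cav1*, the core structural protein of caveolae in most tissues, was thus the lowest of the group and lay above 24.9% of protein-coding genes.

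Within single mice, *Cavin2* was above *Cavin3* per kb in 12 of 12. *Cavin3* was above *Cavin1* in 6 of 12 mice and *Cavin1* above *Ehd4* in 8 of 12, so that these 3 neighbours did not differ beyond their spread. *Ehd4* exceeded *Ehd1* in 12 of 12 mice, whereas *Ehd1* exceeded *Cav2* in 6 of 12 and could not be ordered against it. *Cav2* was above *Ehd2*, and *Ehd2* above *Cav1*, in 11 of 12 mice each.

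**Figure D1:**
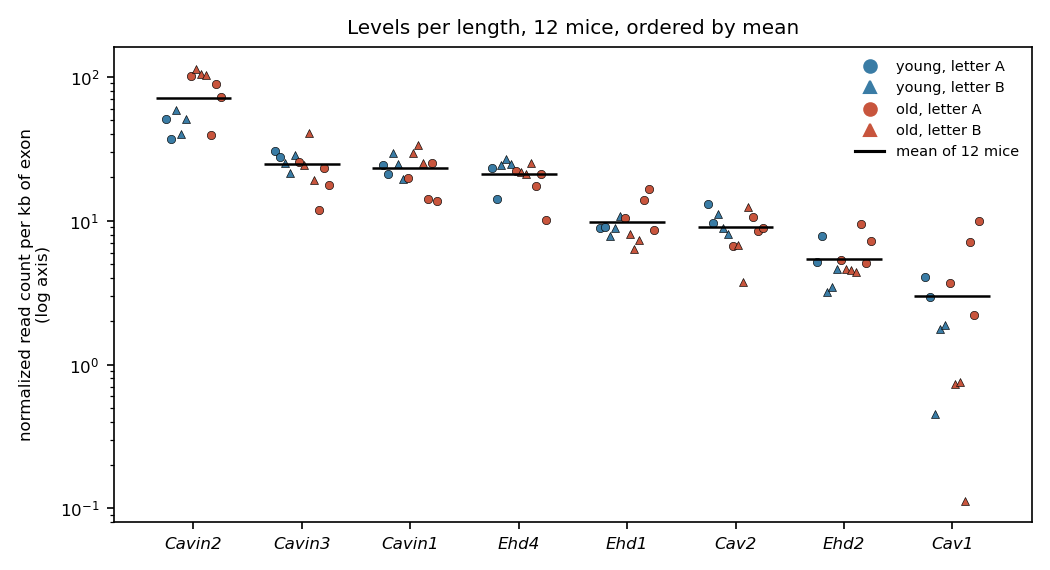
Normalized read count per kb of exon (log axis) for the 8 genes, ordered by mean, with 1 point per mouse coloured by age and shaped by label letter, and a line at the mean of 12 mice. *Cavin2* ranged from 36.8 to 114 per kb and *Cav1* from 0.113 to 9.998 per kb.

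Old and young mice were then compared gene by gene. The group was picked with results of this comparison known, so the values for its members are a description. Over all genes that had a mean of at least 10, limma with Benjamini-Hochberg adjustment called 13 of 12354 at an adjusted p under 0.05, or 0.105%. It called 0 of the 8 members, all of which passed the minimum mean, and 1 of them, *Cavin2*, had an unadjusted p under 0.05, as 3.95% of all genes did. On the log2(value + 1) scale 4 members had a higher mean in old mice and 4 a lower one, and the median over members of the old minus young difference was -0.01, against -0.02 over all genes tested. No member had old and young values without overlap, against 0.461% of all genes. *Cavin2* stood apart from the other 7 members, whose differences lay between -0.36 and 0.27.

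*Cavin2* had normalized read counts of 156, 112, 179, 122 and 156 in young mice 1 to 5. In old mice 1 to 7 it had 309, 349, 318, 315, 121, 271 and 221. In 6 of 7 old mice *Cavin2* was above every young mouse, and old mouse 5 lay within the young range. The mean was 145 ± 27.0 in young (SD, n = 5) and 272 ± 78.1 in old mice (SD, n = 7), a ratio of 1.88. The old minus young difference was 0.85 on the log2 scale with a standard error (SE) of 0.24. Old mice 5 and 7, the 2 lowest old mice for *Cavin2*, were also the 2 with the fewest reads, at 153 and 180 reads on the gene. After all libraries were thinned to the depth of the shallowest, *Cavin2* was at 124 in old mouse 5, at 221 in old mouse 7 and between 271 and 356 in the other old mice, against 112 to 196 in young mice.

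The call for *Cavin2* changed with the fit. The quasi-likelihood and likelihood-ratio tests of edgeR on recovered reads called 0 members, with 0.146% and 0.332% of all genes called, whereas DESeq2 called *Cavin2*, with 0.469% called. With the label letter as a covariate limma gave *Cavin2* a difference of 0.93 (SE 0.21) and called it, as 37 genes or 0.299%. Without old mouse 5 the difference was 1.04 and *Cavin2* was called, as 0.27% of genes were.

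Within letters the direction was shared. Among letter B mice *Cavin2* was at 152 ± 28.2 in young (SD, n = 3) and 327 ± 18.6 in old (SD, n = 3). Among letter A mice it was at 134 ± 30.7 in young (SD, n = 2) and 231 ± 81.5 in old (SD, n = 4), and the groups overlapped through old mouse 5. The differences on the log2 scale were 1.11 within letter B, where 0.974% of genes were called and *Cavin2* was among them, and 0.71 within letter A, where 0.0216% were called and *Cavin2* was not.

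Megakaryocytes and platelets also carry *Cavin2*. The summed value of their 6 markers examined (*Vwf*, *Itga2b*, *Pf4*, *Gp9*, *Gp1ba* and *Ppbp*) lay between 374 and 599 in young and between 412 and 919 in old mice. Most of this sum was *Vwf*, with means of 285 in young and 501 in old mice. The markers did not share a direction. *Itga2b*, *Gp9* and *Gp1ba* also had higher means in old mice, while *Pf4* (41.0 in young, 14.6 in old) and *Ppbp* (8.44 and 1.88) had lower ones. Old mice 5 and 7 had the lowest sums among old mice, at 412 and 502, as well as the lowest *Cavin2*. The summed HSC markers were also lowest in these mice, at 1387 and 2044 against 3275 or more in the other old mice. So were the summed caveolar partners (852 and 931) and clathrin genes (1815 and 1943) described further on. None of these megakaryocyte markers was at 0 in any mouse, and the highest, *Vwf*, at a mean of 411, is also expressed by a subset of HSCs. Their part in the *Cavin2* values was not tested. In such bulk samples fewer cells of a type and less RNA per cell cannot be told apart.

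*Cavin1* did not follow *Cavin2* in its age difference. It was at 87.1, 76.0, 106, 88.7 and 69.9 in young mice 1 to 5 and at 71.4, 106, 121, 90.8, 50.5, 90.2 and 49.2 in old mice 1 to 7. The values of old mice surrounded those of young mice, with 1 old mouse above and 2 below all of them, and the difference was -0.10 (SE 0.23). The lowest 2 of all mice were again old mice 5 and 7.

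Since both cavins were measured in each library, their ratio does not depend on library scaling. *Cavin2* over *Cavin1* was 1.79, 1.48, 1.69, 1.38 and 2.23 in young mice 1 to 5. It was 4.32, 3.30, 2.62, 3.47, 2.39, 3.01 and 4.50 in old mice 1 to 7. The ratio was higher in every old mouse than in every young mouse, with means of 3.37 ± 0.80 and 1.71 ± 0.33 (SD). This separation held within letter A (young 1.64 ± 0.22, old 3.56 ± 1.02) and within letter B (young 1.76 ± 0.43, old 3.13 ± 0.45). It rests on the same contrast that the genes were chosen with, and no test was made of it. How many other pairs of genes separate by age in this way was not counted.

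**Figure D2:**
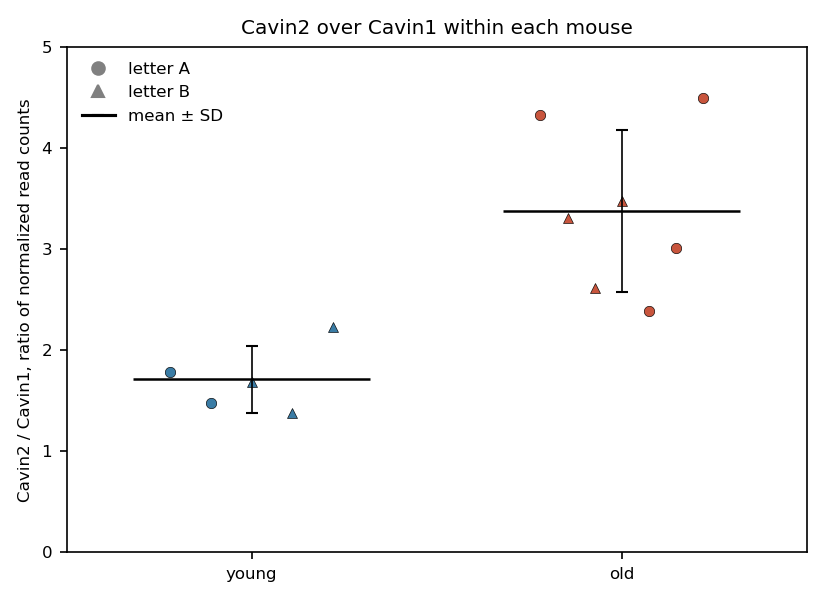
Ratio of the normalized read counts of *Cavin2* and *Cavin1* in each mouse (linear axis from 0), with the mean ± SD of 5 young and 7 old mice as a line and bar, and label letter A as circles and B as triangles. All old mice, from 2.39 to 4.50, lay above the highest young mouse at 2.23.

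*Cavin3*, a binding partner of protein kinase C delta, was at 44.6 ± 5.97 in young and 38.6 ± 14.9 in old mice, with a difference of -0.27 (SE 0.25). It varied more among old mice, with its lowest value of 19.7 in old mouse 5 and its highest of 67.2 in old mouse 3, while young mice ranged from 35.5 to 51.0. Within letter A it was at 48.6 ± 3.44 in young (SD, n = 2) and 32.6 ± 10.2 in old mice (SD, n = 4). Within letter B it was at 41.9 ± 6.19 in young and 46.6 ± 18.4 in old mice (SD, n = 3 each).

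The caveolins did not separate by age. *Cav1* was at 14.0, 10.1, 1.57, 6.08 and 6.46 in young mice 1 to 5 and at 12.7, 2.53, 2.61, 0.389, 24.5, 7.55 and 34.4 in old mice 1 to 7, which span the young range on both sides. Its difference was 0.08 with an SE of 0.83, the widest of the group. It had between 2 and 45 reads per mouse, and its mean of 10.2 barely met the minimum mean. *Cav2* was at 33.9 ± 6.49 in young and 27.4 ± 9.57 in old mice, and 3 of 7 old mice lay below all young mice. Its difference was -0.36 (SE 0.28).

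None of the EHD genes separated by age either. *Ehd1* was at 33.7 ± 3.89 in young and 37.7 ± 13.8 in old mice, from 29.2 to 40.0 and from 23.5 to 61.4. Young mice were close together, and old mice were found on both sides of them. *Ehd2* was at 24.8 ± 9.43 in young and 29.8 ± 9.75 in old mice, a difference of 0.27 (SE 0.28). *Ehd4* was at 90.7 ± 19.6 in young and 79.3 ± 19.3 in old mice, a difference of -0.21 (SE 0.23). Young mouse 2, at 56.7, was far below the other young mice at 93.6 to 107 for *Ehd4*.

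**Figure D3:**
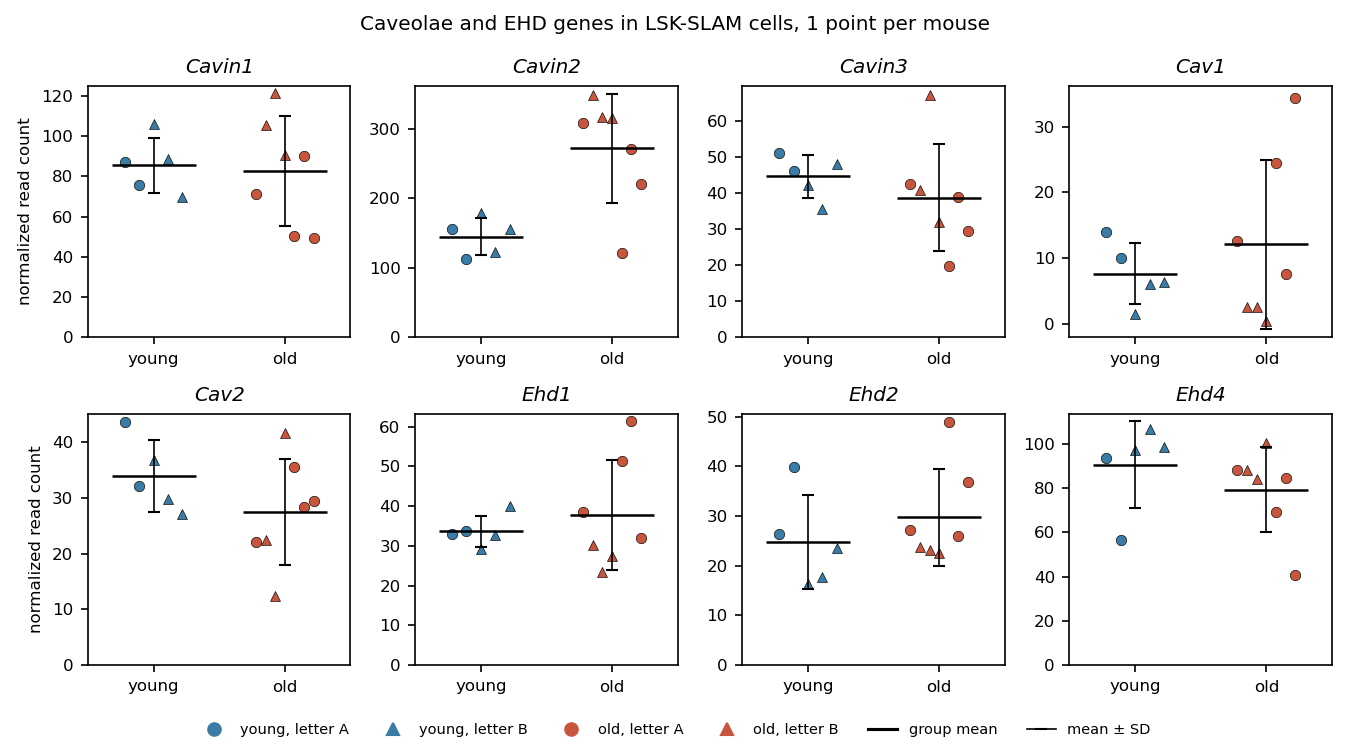
Normalized read counts of the 8 genes in each mouse (linear axes, each with its own range), with young in blue, old in red, label letter A as circles and B as triangles, and the mean ± SD of each age as a line and bar. For *Cavin2* 6 of 7 old mice lay above all young mice, and for *Cav1* and *Ehd2* the circles lay above the triangles.

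**Figure D4:**
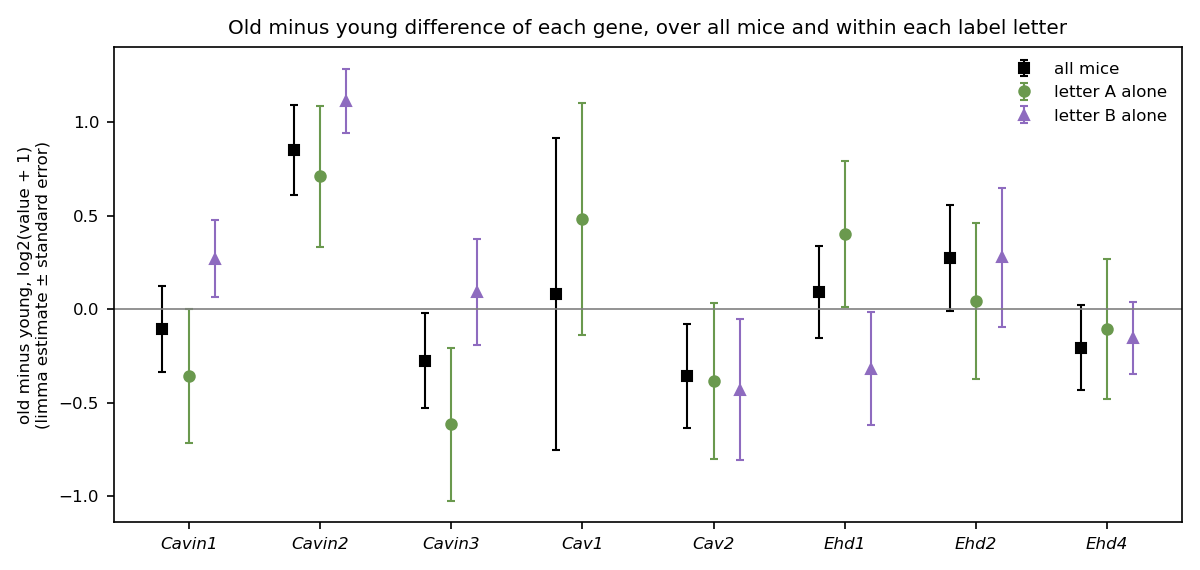
Old minus young difference on the log2(value + 1) scale with its SE from limma for each gene, over all mice (squares), within letter A (circles) and within letter B (triangles). *Cavin2* was at 0.85, 0.71 and 1.11, and *Cav1* has no letter B point because its mean fell under 10 there.

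The label letter was not used in choosing the genes, and the difference between letters was tested with age as a covariate. It was wide: limma called 4462 of 12354 genes, or 36.1%, with 25.6% lower and 10.5% higher in letter B. Of the 8 members it called 1, *Cav1*, so the share of members called was below that of all genes. Depth differed between the letters too, as given above.

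*Cav1* was lower in letter B. The 6 mice of letter A had 14.0, 10.1, 12.7, 24.5, 7.55 and 34.4, and the 6 mice of letter B had 1.57, 6.08, 6.46, 2.53, 2.61 and 0.389. The letters did not overlap, which was also true of 10.5% of all genes, with 7.33% lower in letter B. Means were 17.2 ± 10.2 and 3.27 ± 2.46 (SD, n = 6 each), a ratio of 5.25. The difference of letter B minus letter A was -2.19 on the log2 scale (SE 0.57, adjusted p = 0.00533, limma with Benjamini-Hochberg adjustment). *Cav1* passed the minimum mean of 10 only through letter A mice, and it fell below that mean without young mouse 1, old mouse 5 or old mouse 7. With no minimum mean and without old mice 5 and 7, the difference was -1.69 (SE 0.55, adjusted p = 0.0424, limma), and 14% of genes were called. After thinning to equal depth it was -2.67 (SE 0.72, adjusted p = 0.00809, limma), and 30.2% of genes were called. Over the alternatives that gave *Cav1* a value, its adjusted p lay between 0.000135 and 0.0424 with limma, edgeR or DESeq2. Those with a minimum mean kept *Cav1* only through its letter A values, so their calls say little on how stable the difference is.

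Some cell type markers differed between letters, in both directions, where 25.6% of all genes were called lower and 10.5% higher in letter B. The HSC markers *Hlf* (0.73, adjusted p = 0.039) and *Mecom* (0.65, adjusted p = 0.0231) and the megakaryocyte marker *Vwf* (0.59, adjusted p = 0.0241) were higher in letter B with limma, and no tested marker of these lists was called lower. Of 9 stromal and adipocyte markers 7 could be tested, and 5 of them (*Lepr*, *Cxcl12*, *Col1a1*, *Pdgfra* and *Col1a2*) were lower in letter B. Their summed value lay between 212 and 446 in letter A and between 78.7 and 256 in letter B. *Lepr*, the leptin receptor of marrow stromal cells, had a difference of -1.87 (adjusted p = 0.00207, limma). Of 7 endothelial markers 3 could be tested and 1, *Cdh5*, the cadherin of endothelial junctions, was lower, by -1.67 (adjusted p = 0.00161, limma). With means of 24.4 in letter A and 7.47 in letter B, *Cdh5* passed the minimum mean only through letter A. The endothelial sum was 132 to 195 in letter A and 92.2 to 134 in letter B. Of 8 mature blood cell markers examined 6 could be tested and 2 were lower. No listed marker with a row was at 0 in every mouse. Stromal, adipose and endothelial cells are rich in *Cav1*, and the part of these markers in its difference was not tested. Other low genes also had higher means in letter A than in letter B. Among them were the mature blood cell marker *Cd3e* (14.6 against 3.56) and the caveolar partners *Cavin4* (14.4 against 3.39) and *Cav3* (7.48 against 2.71). Not all low genes did so, as *Gp9* was at 20.7 in letter A and 24.7 in letter B.

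**Figure D5:**
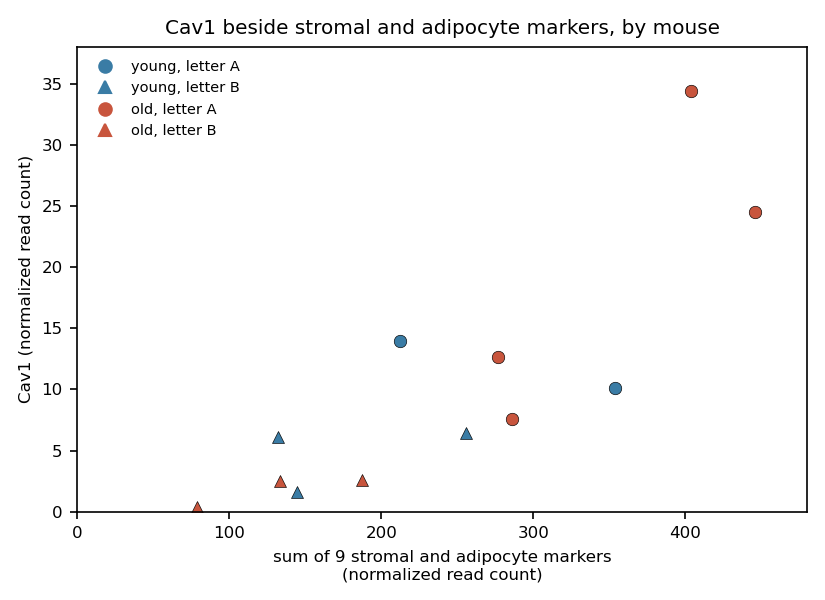
*Cav1* normalized read count against the summed normalized read count of 9 stromal and adipocyte markers in each mouse (linear axes), with young in blue, old in red, letter A as circles and letter B as triangles. The highest *Cav1* values, 34.4 and 24.5, were in old mice 7 and 5, which also had the highest sums at 403 and 446 and the fewest reads. Other mice did not keep this order. Young mouse 2 had a sum of 354 with *Cav1* at 10.1, and young mouse 1 a sum of 212 with *Cav1* at 14.0.

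*Cav2*, the neighbour of *Cav1*, differed by -0.29 (SE 0.27, adjusted p = 0.405, limma), which was lost at 0.00060 after rescaling by median ratios, and its letters overlapped. *Ehd2* was at 34.2 ± 9.33 in letter A and 21.2 ± 3.30 in letter B (SD, n = 6 each). Its letters did not overlap, with all letter A mice at 26.0 or more and all letter B mice at 23.8 or less, but its difference of -0.61 (SE 0.25) did not pass adjustment (adjusted p = 0.0587, limma). Thus the 2 genes whose letters did not overlap at full depth were *Cav1* and *Ehd2*, both higher in letter A. Of all genes 10.5% did not overlap, with 7.33% lower in letter B. After thinning to equal depth the letters of *Ehd2* overlapped, with 20.2 in young mouse 1 of letter A and 29.9 in old mouse 2 of letter B. Its difference was then -0.44 (SE 0.29, adjusted p = 0.247, limma).

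*Cavin1*, *Ehd4* and *Cavin2* had positive differences between letters, of 0.47, 0.43 and 0.42 (SE 0.20 each), and none passed adjustment (adjusted p = 0.0665, 0.0850 and 0.106, limma). *Ehd1* had -0.41 (SE 0.24, adjusted p = 0.174, limma) and *Cavin3* 0.20 (SE 0.24, adjusted p = 0.547, limma). These calls depended on scaling. When values were rescaled by median ratios the median of all genes moved from -0.09 to 0.24, calls went from 29.2% to 59.5% higher in letter B, and *Cavin1* (0.76), *Ehd4* (0.73) and *Cavin2* (0.72) were called. *Cav1* then fell below the minimum mean.

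The interaction of age and letter, which asks whether the age difference itself differed between letters, was called for 0 of 8 members by limma, and for 0.0162% of all genes. No member had an unadjusted p under 0.05 for it, against 3.43% of all genes, and no other tool was run on it. For *Cavin2* the age difference was larger in letter B by 0.40 (SE 0.42), and for *Cavin1* and *Cavin3* by 0.63 (SE 0.40) and 0.71 (SE 0.49). For *Ehd1* it was lower in letter B by -0.72 (SE 0.47) and for *Cav1* by -1.46 (SE 1.16).

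Next, the genes that work with caveolae and EHD proteins were examined from lists that leave out the members. Of 15 symbols listed for caveolar partners, which name *Cavin4* also by its former symbol *Murc*, 12 had a row and 10 could be tested for age. None was called by limma, edgeR or DESeq2, none had an unadjusted p under 0.05 with limma, and their median difference was 0.04 against -0.02 over all genes. The extremes were *Pacsin3*, a membrane-bending F-BAR protein of caveolae, at 0.99 (SE 0.63), *Prkca*, protein kinase C alpha, at 0.35 (SE 0.21), *Nostrin*, an adaptor that traffics nitric oxide synthase, at -0.50 (SE 0.65), and *Dnm2*, a dynamin that cuts vesicle necks, at -0.26 (SE 0.28). Exons of *Pacsin3*, *Prkca* and *Dnm2* overlap a gene on the opposite strand. By letter, *Dnm2* and *Abl1* were higher in letter B and *Nos3* and *Pacsin3* lower, which is 4 of 10 genes against 36.1% of all genes. *Pacsin3* passed the minimum mean only through letter A (18.1 against 5.61 in letter B). *Nos3*, the nitric oxide synthase of endothelium, had the largest of these differences, at -1.51 (adjusted p = 0.00244, limma).

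Of 17 symbols listed for EHD partners in endocytic recycling 12 had a row and all 12 could be tested. The list names *Rbsn* also by its former symbol *Zfyve20*. None of the 12 was called for age by limma, edgeR or DESeq2, and none had an unadjusted p under 0.05 with limma. Their median was 0.03. *Rab11fip5*, an effector of Rab11 on recycling endosomes, was at 0.24 (SE 0.19) and *Ehbp1*, which binds EHD proteins, at 0.21. *Rbsn*, a Rab effector of early endosomes, was at -0.35 (SE 0.18) and *Vps35*, a retromer subunit, at -0.16. By letter 1 of these 12 genes was called, against 36.1% of all genes. It was *Rab11b*, a GTPase of recycling endosomes, which was higher in letter B by 1.02 (adjusted p = 0.00225, limma).

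The clathrin coat and its scission machinery, the other main route of endocytosis, had 21 of 27 genes with a row. None was called for age by limma or by the quasi-likelihood test of edgeR, and the median was -0.03. With limma 2 of the 21 were higher and 2 lower at an unadjusted p under 0.05, against 3.95% of all genes. *Dnm3*, a dynamin that is also known from megakaryocytes, had the largest difference of the 3 lists, at 1.23 (SE 0.26, adjusted p = 0.105, limma). It was at 31.98 ± 15.6 in young mice, from 19.4 to 54.8, and at 71.9 ± 15.7 in old mice, from 49.2 to 90.1. The ranges overlapped. With the letter as a covariate *Dnm3* had a difference of 1.16 and was called (adjusted p = 0.0177, limma). Without young mouse 2 the difference was 1.45 and it was called too, and the likelihood-ratio test and DESeq2 called it as the 1 gene of the list. Its adjusted p over all alternatives, from limma, edgeR or DESeq2, lay between 0.00124 in letter B alone (a difference of 1.74) and 0.99989 in letter A alone (0.51). Several antisense genes lie within *Dnm3*, some with overlapping exons, so its reads are uncertain where strand was not used. *Hip1*, a clathrin adaptor that binds actin, was at 75.7 ± 12.6 in young and 104 ± 13.3 in old mice, a difference of 0.46 (SE 0.17, adjusted p = 0.895, limma). *Fcho1*, an early initiator of clathrin pits, was at -0.54 (SE 0.24) and *Ap2s1*, the small subunit of the AP2 adaptor, at -0.51 (SE 0.22). By letter 4 of these 21 genes were called higher and 3 lower in letter B by limma, against 10.5% and 25.6% of all genes. Of the lower ones *Epn2* passed the minimum mean only through letter A (23.9 against 9.62 in letter B).

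Finally, the genes most like *Cavin2* were sought after the means of age and letter had been removed, by Pearson's r of log2(value + 1) over 12 mice among 12346 genes. The 5 highest were *Selenot* (0.98), *Aifm1* (0.96), *Zmiz2* (0.96), *Ptger3* (0.96) and *Slc25a4* (0.96). Before the means were removed, the r of these 5 genes lay between 0.53 (*Selenot*) and 0.76 (*Ptger3*). Within the group *Cavin3* (0.73) and *Cavin1* (0.62) had the highest r with *Cavin2*, *Ehd4* had 0.28, and *Cav2* (-0.18), *Ehd1* (-0.29), *Cav1* (-0.49) and *Ehd2* (-0.70) had negative values. How many of all genes reach the r of *Cavin3* or *Cavin1* is not given here. All points share the libraries and their depth, and these r values are a description.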

How the data were processed

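RNA-seq of LSK-SLAM cells from 12 mice was analysed from the table that the authors deposited. Its values are a signal per gene and mouse, namely read numbers that the authors had divided by a library size and its scaling factor. Each mouse was mapped to its age by the column name, and 0 columns were left without a label. According to the submitters' processing notes mm10, FastQC 0.11.8, STAR 2.5.4b and edgeR 3.24.3 were used. The counting tool and annotation are not given in the sources used here. A table of the authors' own comparison (log2 fold changes, log2 CPM, likelihood ratios, p-values and FDR) was not used.

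All values (100%) were whole multiples of 1 read (tolerance 0.01 reads), so reads were recovered. A value of 3 reads was worth 0.583 to 3.69 normalized read counts, which limits low genes, and such floors cover counting error only. Genes were tested with limma 3.58.1 (lmFit and eBayes with trend) in R 4.3.3 on log2(value + 1), after genes with a mean under 10 had been left out. P-values were adjusted by Benjamini-Hochberg over all genes tested, and genes were called at an adjusted p under 0.05. A fold change on this scale understates that of low genes. Count tests on recovered reads used edgeR 4.0.16 and DESeq2 1.42.0. The design assumed normalized values, and limma was kept as the main test once reads had been recovered. Other steps used Python 3.11.15, numpy 2.4.6 and pandas 2.3.3.

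The genes and lists were chosen with earlier results of these data known. Named were all members, of each partner list every gene called for age and the 2 highest and 2 lowest differences, and the 5 genes most like *Cavin2*. Other genes (markers, and partners called by letter) were named after their values were seen. On simulated data with a log2 change of 1.5 in 198 genes, limma found 54.0% for old against young, and 1.83% of its calls were false. Some listed markers of megakaryocytes and mature blood cells are not reported here. Alternatives covered the pseudocount, minimum mean, trend, scaling, tool, letter, replicate block and leaving out each mouse.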

Additional observations from a re-analysis of the deposited data

Results flagged for a closer look

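*Ehd4* in young mouse 2 had a normalized read count of 56.7, while the other 4 young mice lay between 93.6 and 107. Its gap to the nearest young mouse was beyond Dixon's limit for 5 samples. Of 32 groups examined this was the only one with such a value, and chance alone gives about 1.6.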

How the results depend on the processing

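For old against young, limma called 13 genes and 0 members. The number of genes was 22 with a minimum mean of 30, 2 without the trend, 5 after rescaling by median ratios, 58 with DESeq2, 37 with the letter as a covariate, 3 in letter A alone and 98 in letter B alone, and it lay between 3 and 32 (without old mouse 5) when 1 mouse was left out. Chosen after seeing the data, the likelihood-ratio test gave 41 and leaving out the 2 shallowest libraries gave 49. *Cavin2* was the 1 member called with DESeq2, with the letter as a covariate, in letter B alone and without the 2 shallowest libraries. Leaving out 1 mouse gave 0 to 1 members, and the 1 was *Cavin2* without old mouse 5. The *Cavin2* difference stayed between 0.77 and 1.04 when 1 mouse was left out. *Ehd1* was at -0.32 in letter B alone.

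For letter B against A, limma called 4462 genes and 1 member. A minimum mean of 30 gave 1456 genes and 0 members, and leaving out 1 mouse 2817 (without young mouse 2) to 5014 genes and 0 to 3 members. *Cav1* could not be called without old mouse 5, old mouse 7 or young mouse 1. *Cavin1* was called without young mouse 1 (0.56), young mouse 5 (0.55) or old mouse 6 (0.54), *Ehd4* without young mouse 1 (0.54) or old mouse 1 (0.51), and *Ehd2* without young mouse 5 (-0.66), old mouse 1 (-0.68) or old mouse 6 (-0.69). Members called numbered 2 without the trend, 3 after rescaling, 2 with DESeq2 and 2 without age as a covariate. Without the 2 shallowest libraries 1990 genes and 0 members were called, since *Cav1* fell below the minimum mean. With no minimum mean as well these were 2563 genes and 1 member. *Cavin3* turned to -0.045 without these libraries, with or without the minimum mean, and ranged from -0.00015 (without old mouse 3) to 0.30 when 1 mouse was left out. *Cav2* turned to 0.00060 after rescaling. The interaction called 0 members under each of its 17 alternatives.

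In the clathrin list limma called 0 genes for age and 1 with a minimum mean of 30, the likelihood-ratio test, DESeq2, the letter as a covariate or letter B alone, and 0 to 1 when 1 mouse was left out. *Dnm2* turned to 0.092 without the 2 shallowest libraries and *Vps35* ranged from -0.24 to 0.0068 (without old mouse 5). The cause of these changes was not tested. *Cav1* had no value in letter B alone, with a minimum mean of 30, after rescaling, or without young mouse 1, old mouse 5 or old mouse 7.

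Replicate numbers 1 to 5 occur in both ages, in different animals. Deviations of same-numbered mice correlated at 0.180, -0.559, 0.402, 0.615 and 0.0437. They were not all above 0.1, so the numbers were not taken to pair the mice. Pairs 1, 3 and 4, with 0.180, 0.402 and 0.615, also share the label letter. With this replicate block, 19 genes and 0 of 7 members tested were called.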
